A study of Rattus norvegicus with 6 samples.

Results

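Core circadian clock genes are the 10 genes Arntl, Clock, Npas2, Nr1d1, Nr1d2, Per1, Per2, Per3, Cry1 and Cry2, out of 17833 genes measured in pulmonary vein (PV) tissue of young rats. They were taken by name, and the names were chosen by the measured difference between banded and sham rats in these same libraries, so the size and direction of that difference are given below as a description. Counts of calls among them, given once beside the share over all genes, are fixed by that choice and support nothing. All 10 passed the filter on low values that left 15150 genes.

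The libraries came from wild-type Sprague-Dawley (SD) rats operated on at postnatal day 1, with PV tissue of the right upper lobe taken at postnatal day 21. In the BPVB group (bilateral pulmonary vein banding, 3 rats) the veins were constricted, and in the sham group (3 rats) the operation was done without the constriction. Messenger RNA was sequenced in 1 library per rat, and the deposited values are FPKM, fragments divided by gene length and library total, which compare genes per unit of length. The hour of the day at which each rat was killed is not given in the sources used here, so hour and group cannot be told apart.

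The molecular clock is a feedback loop that runs in nearly every mammalian cell. BMAL1, the product of Arntl, pairs with CLOCK or its paralogue NPAS2 and turns on the Per and Cry genes, whose proteins return to the nucleus and block that pair. In a second loop the same pair turns on Nr1d1 and Nr1d2, whose products REV-ERBα and REV-ERBβ repress Arntl, so in a cycling tissue Arntl peaks at nearly the opposite time of day to Nr1d1, Per3 and the output factor Dbp.

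The libraries held 26078189 to 29725808 fragments in the BPVB group and 23439506 to 23821184 in the sham group. Every BPVB library was deeper than every sham library, so depth and group went together. Summed markers of smooth muscle (5 of 5 genes above 0 in every library, 4349 to 4390 FPKM in the BPVB group and 4549 to 4617 in the sham group), endothelium (5 of 5, 869 to 884 against 962 to 969) and the cardiac muscle sleeve of the PV (5 of 5, 10313 to 10719 against 14130 to 14479) were present in all 6 libraries and were lower in the BPVB group, with 4, 3 and 4 genes called lower (limma, adjusted p below 0.05) and 1, 0 and 1 higher. Fibroblast markers (4 of 4) summed to 2226 to 2241 FPKM against 2117 to 2129, with 2 called higher and 2 lower. Over all tested genes 17.2% were called higher and 14.3% lower. Markers of other cells also moved with the groups. Lung epithelial markers (6 of 7 above 0 in every library, with Foxj1 at 1 fragment in 1 sham library and 0 in the other 5 libraries) summed to 581 to 631 FPKM in the BPVB group and 62.8 to 65.1 in the sham group, macrophage markers (5 of 5) to 617 to 644 against 185 to 191, and neuronal markers (3 of 5, with Chat at 0 in every BPVB library) to 3.85 to 4.99 against 13.5 to 16.3. Their part in the clock gene values below was not tested. In tissue measured in bulk, fewer cells of a type and less RNA per cell cannot be told apart.

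Promoters are shown first because the loop is known to act through short DNA elements. The RefSeq promoters of the GRCr8 build, 250 bases before to 50 bases after a start, were available for 9 of the 10 members (11 promoters, Arntl under the name Bmal1), and each was searched on both strands for the E-box CACGTG, the variant E-box CACGTT, the D-box TTATGTAA or TTACGTAA, the ROR element TAGGTCA or TGGGTCA, which REV-ERB proteins also bind, and the cAMP element TGACGTCA. Of all 33469 RefSeq promoters of this length, 6.42% held the E-box, 4.83% the variant E-box, 1.01% the D-box, 6.6% the ROR element and 1.83% the cAMP element. Among the members 5 promoters of 4 genes held a match, and no matches overlapped. Sequences with a match are printed for Arntl, Nr1d1, Per2 and Cry2, 5′ to 3′ on the strand of the gene, with the matched element in capitals. No link between an element and an expression value was tested. The Arntl promoter (chr1:176766078-176766377, plus strand) held 1 ROR element, from 16 to 10 bases before the start. The second of the pair of Nr1d1 promoters (chr10:84229405-84229704, minus strand) held an E-box from 191 to 186 bases before the start. The Per2 promoter (chr9:99496944-99497243, minus strand) held a D-box from 192 to 185 bases before the start and a variant E-box from 62 to 57 bases before it. The stretch of the Cry2 promoter (chr3:98860614-98860679, minus strand) is printed because Cry2 was the member that did not separate the groups, and its variant E-box lies on the opposite strand, so that it reads AACGTG.
Arntl: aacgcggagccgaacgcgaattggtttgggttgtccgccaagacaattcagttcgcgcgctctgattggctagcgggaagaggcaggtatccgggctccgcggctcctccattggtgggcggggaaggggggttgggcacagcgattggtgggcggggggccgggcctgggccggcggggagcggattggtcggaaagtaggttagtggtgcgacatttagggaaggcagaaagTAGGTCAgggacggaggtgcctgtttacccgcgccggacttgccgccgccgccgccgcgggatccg
Nr1d1: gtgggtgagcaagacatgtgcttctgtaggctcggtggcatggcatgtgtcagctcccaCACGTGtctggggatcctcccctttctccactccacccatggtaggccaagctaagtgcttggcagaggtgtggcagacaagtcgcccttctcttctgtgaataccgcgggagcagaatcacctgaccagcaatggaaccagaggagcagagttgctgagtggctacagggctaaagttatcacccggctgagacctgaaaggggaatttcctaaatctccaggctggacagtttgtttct
Per2: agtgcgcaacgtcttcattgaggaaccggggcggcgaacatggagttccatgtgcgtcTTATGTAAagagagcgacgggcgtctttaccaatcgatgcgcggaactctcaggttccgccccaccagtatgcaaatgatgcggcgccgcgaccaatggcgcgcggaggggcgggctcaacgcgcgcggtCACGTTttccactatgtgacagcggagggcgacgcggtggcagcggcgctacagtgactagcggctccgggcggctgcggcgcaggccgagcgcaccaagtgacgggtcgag
Cry2: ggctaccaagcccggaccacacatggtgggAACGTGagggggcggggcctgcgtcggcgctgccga
The other Nr1d1 promoter held a variant E-box on the opposite strand, from 174 to 169 bases before the start. No match lay in the windows of Clock, Npas2, Nr1d2, Per1 or Per3, which says only that these letters are not in these windows. A match is a description of the sequence and not of binding in this tissue.

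The activators of the loop were higher in the BPVB group, and Arntl by the most. Arntl, which encodes BMAL1, measured 15.7, 15.8 and 17.3 FPKM in the BPVB libraries, where the sham libraries had 1.55, 1.78 and 1.85 FPKM. The groups lay far apart, and the lowest BPVB library was well above every sham library. The means were 16.3 ± 0.866 (SD, n = 3) and 1.72 ± 0.157 (SD, n = 3), a level 9.43-fold higher after banding, with a difference of 2.91 (SE 0.088) on the log2(FPKM + 0.5) scale. This placed Arntl at rank 19 of the 15150 genes by the absolute size of the difference. The value rested on 1939 to 2412 fragments per BPVB library and 173 to 207 per sham library.

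Clock and Npas2 encode the alternative partners of BMAL1. Clock measured 11.5, 11.1 and 11.7 FPKM in the BPVB group and 6.99, 6.59 and 7.11 FPKM in the sham group, with no overlap and a level 1.65-fold higher (log2 difference 0.69, SE 0.065). Npas2 measured 4.20, 4.18 and 4.57 FPKM in the BPVB group and 1.66, 1.33 and 1.39 FPKM in the sham group, also without overlap and 2.96-fold higher (log2 difference 1.30, SE 0.11). The paralogue with the lower level thus differed by the larger factor. Npas2 made up 26.7%, 27.4% and 28.2% of the summed Clock and Npas2 level after banding and 19.2%, 16.8% and 16.3% in the sham libraries. Clock still supplied most of the sum in every library. The sum itself was 15.7 ± 0.491 FPKM (SD, n = 3) in the BPVB group and 8.35 ± 0.386 FPKM (SD, n = 3) in the sham group, 1.88-fold higher. The mean Clock to Arntl ratio was 0.703 ± 0.0289 in the BPVB group and 4.02 ± 0.432 in the sham group (SD, n = 3 each), so that Clock was below Arntl after banding and above it in sham. The Npas2 to Arntl ratio averaged 0.266 in the BPVB group and was 1.07, 0.747 and 0.750 in the sham libraries, so Npas2 was already below Arntl in 2 of the 3 sham libraries.

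The REV-ERB genes, whose products repress Arntl, were the most abundant members in sham tissue and were several-fold lower in the BPVB group. Nr1d1, which encodes REV-ERBα, measured 17.4, 18.8 and 16.7 FPKM after banding and 102, 98.5 and 98.2 FPKM in the sham libraries. Every BPVB library was below every sham library, and the spread within each group was small against the gap. The level was 5.64-fold lower after banding (17.7 ± 1.07 against 99.6 ± 2.15 FPKM, SD, n = 3 each), a log2 difference of -2.46 (SE 0.049). Nr1d2, which encodes REV-ERBβ, measured 13.7, 14.9 and 14.9 FPKM in the BPVB group and 54.2, 53.1 and 52.5 FPKM in the sham group, 3.68-fold lower (log2 difference -1.84, SE 0.047). Nr1d1 made up 54.9% ± 1.66 of the summed REV-ERB level in the BPVB group and 65.1% ± 0.17 in the sham group (SD, n = 3 each), so the paralogues were closer to each other after banding. Their sum was 32.2 ± 1.41 FPKM and 153 ± 2.98 FPKM (SD, n = 3 each), 4.75-fold lower in the BPVB group.

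In RefSeq the Nr1d1 gene overlaps Thra, the thyroid hormone receptor alpha gene. Thra measured 62.3 ± 1.06 FPKM in the BPVB group and 36.0 ± 0.912 FPKM in the sham group (SD, n = 3 each), a log2 difference of 0.78 (adjusted p = 1.0e-06, limma), in the direction opposite to that of Nr1d1. RefSeq also places a protein-coding gene over Cry1 and long noncoding RNA genes over Clock, Npas2, Per2 and Cry2. None of those has deposited values. The strand setting of the counting is not given in the sources used here, so reads from a shared stretch cannot be told apart.

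**Figure D1:**
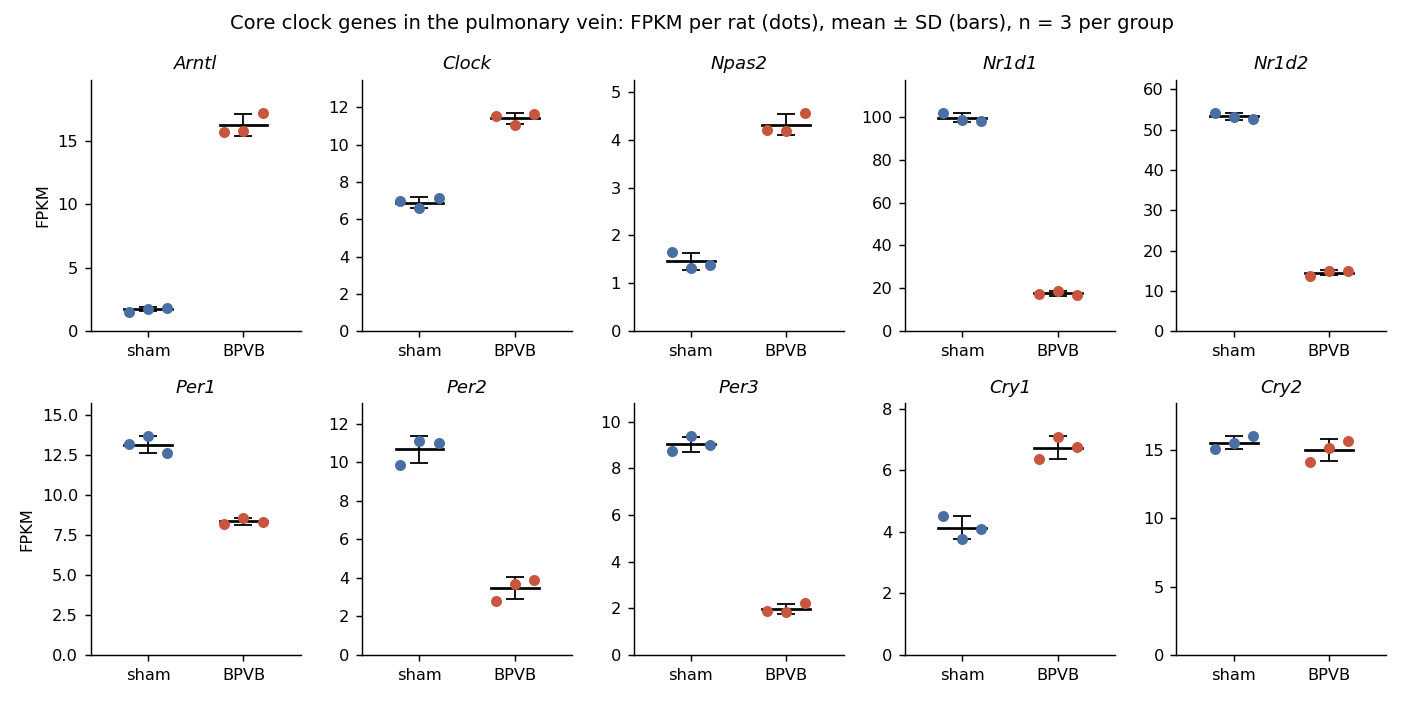
FPKM of the 10 core clock genes in each library, 1 panel per gene with its own linear axis from 0; dots are rats of the sham and BPVB groups (n = 3 each) and bars give the mean and SD. Arntl lies at 15.7 to 17.3 FPKM after banding against 1.55 to 1.85 in sham, and Cry2 at 14.1 to 15.7 against 15.1 to 16.0.

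The Period genes, whose proteins hold back the CLOCK and BMAL1 pair, were all lower in the BPVB group, by unequal amounts. Per1, which is also induced quickly by hormones and other outside signals, measured 8.16, 8.57 and 8.33 FPKM after banding and 13.2, 13.7 and 12.6 FPKM in the sham libraries, 1.57-fold lower (log2 difference -0.62, SE 0.061). Per2 measured 2.82, 3.68 and 3.91 FPKM after banding and 9.89, 11.1 and 11.0 FPKM in the sham libraries, 3.08-fold lower (log2 difference -1.50, SE 0.12). Per3 measured 1.89, 1.83 and 2.21 FPKM after banding and 8.74, 9.38 and 8.99 FPKM in the sham libraries, 4.57-fold lower (log2 difference -1.95, SE 0.094). The size of the difference grew from Per1 to Per3.

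The makeup of the Period level shifted accordingly. Per1 supplied 63.4%, 60.9% and 57.7% of the summed Per level after banding and 41.4%, 40.0% and 38.7% in the sham libraries. Per3 supplied 14.3% ± 1.2 (SD, n = 3) and 27.5% ± 0.056 (SD, n = 3). The summed level was 13.8 ± 0.826 FPKM in the BPVB group and 32.9 ± 1.2 FPKM in the sham group (SD, n = 3 each), 2.38-fold lower.

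The Cryptochrome genes, partners of the Period proteins, did not share the Period pattern. Cry1, a strong repressor that peaks later than the Period genes in most tissues, measured 6.36, 7.10 and 6.77 FPKM in the BPVB group and 4.53, 3.78 and 4.09 FPKM in the sham group. The groups did not overlap, and Cry1 was 1.63-fold higher after banding (log2 difference 0.65, SE 0.092), the same direction as the activators. Cry2 measured 14.1, 15.2 and 15.7 FPKM in the BPVB group and 15.1, 15.5 and 16.0 FPKM in the sham group, and these ranges overlapped. The log2 difference for Cry2 was -0.05 (SE 0.058), and it was the only member whose groups overlapped. Cry2 remained the major cryptochrome in every library, with Cry1 at 31.0% ± 0.865 of their summed level in the BPVB group and 21.0% ± 1.85 in the sham group (SD, n = 3 each). The sum differed least of the families, at 21.7 ± 1.08 and 19.7 ± 0.416 FPKM (SD, n = 3 each), 1.11-fold higher in the BPVB group without overlap.

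**Figure D2:**
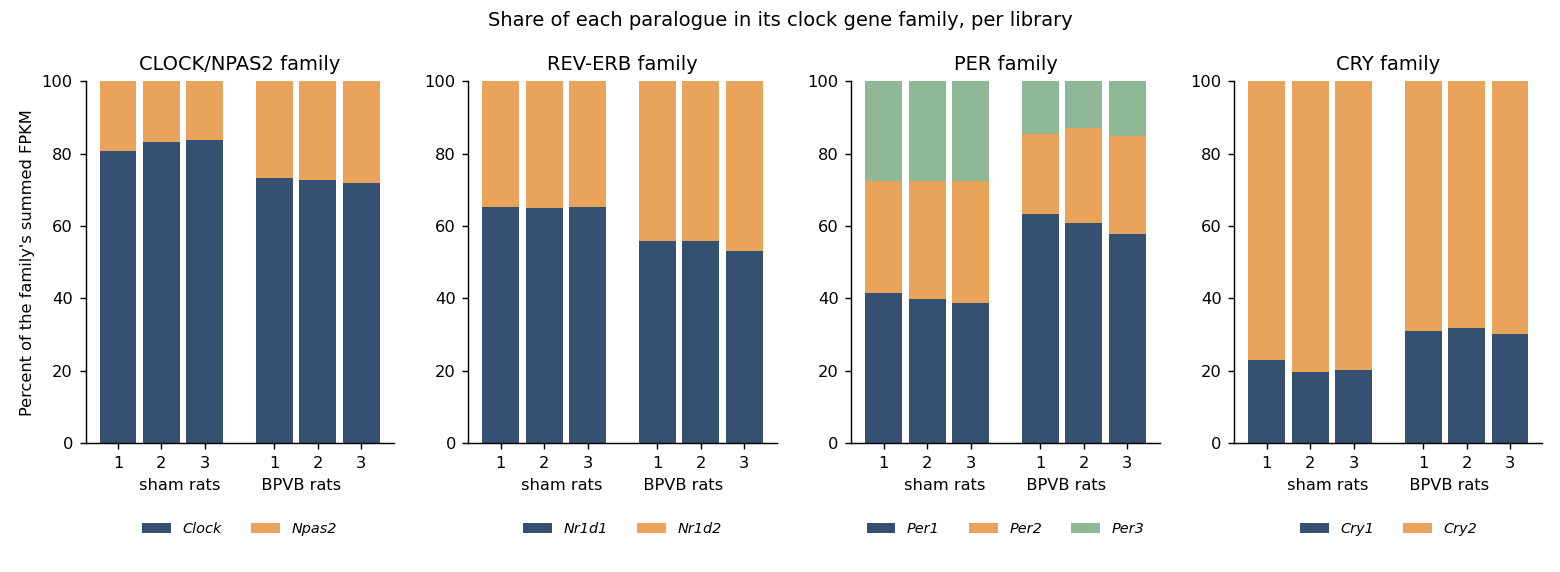
Percent of each family's summed FPKM held by each member in every library (stacked bars from 0 to the whole), for CLOCK/NPAS2, REV-ERB, PER and CRY. Npas2, Nr1d2, Per1 and Cry1 hold a larger share in each BPVB library than in any sham library.

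By adjusted p below 0.05 in limma, 4 of the 10 members (Arntl, Clock, Npas2 and Cry1) were called higher in the BPVB group, where 17.2% of all tested genes were, and 5 (Nr1d1, Nr1d2, Per1, Per2 and Per3) were called lower, where 14.3% were. With an absolute log2 difference above 1 required as well, which defines a differentially expressed gene (DEG) here, 2 members (Arntl and Npas2) were higher against 2.24% of all genes and 4 (Nr1d1, Nr1d2, Per2 and Per3) were lower against 1.03%. Groups did not overlap, with the BPVB group higher, for 4 members and 25.2% of all genes, and with the BPVB group lower, for 5 members and 20.5% of all genes. The balance over all genes depended on the scaling, with 2605 genes higher and 2170 lower as deposited, 2362 and 2454 after median of ratios scaling, and 2972 and 1857 when values were rescaled to the same sum in each library (TPM). As the members were selected on this same contrast, nothing is read from these counts. Per1 (-0.62), Cry1 (0.65) and Clock (0.69) lay inside an absolute log2 difference of 1, and Npas2 (1.30) and Per2 (-1.50) were the nearest outside it. The median absolute log2 difference was 1.40 over the members and 0.179 over all tested genes. That gap was fixed by the same selection, and nothing is read from it.

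**Figure D3:**
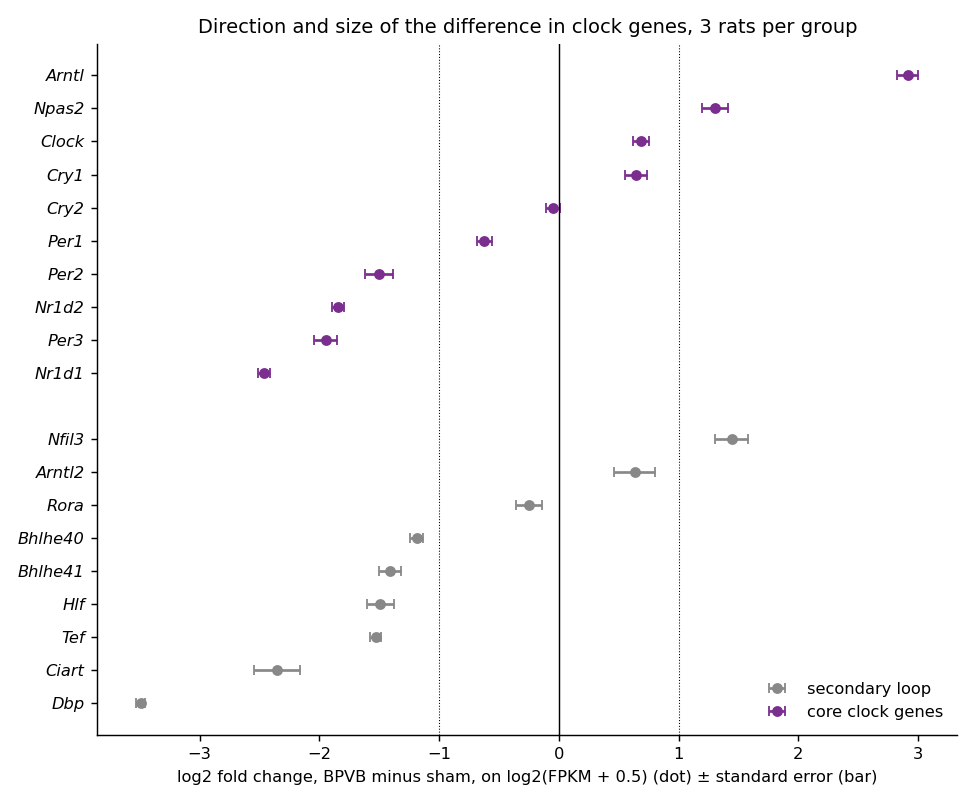
Log2 difference between BPVB and sham group on the log2(FPKM + 0.5) scale, with its standard error, for each core clock gene and the listed secondary loop genes. Values run from 2.91 for Arntl to -3.49 for Dbp, and Cry2 lies at -0.05.

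Ratios within a library do not depend on the total of that library. The Arntl to Nr1d1 ratio was 0.903, 0.839 and 1.03 after banding, against 0.0152, 0.0181 and 0.0188 in the sham libraries, a difference of 53.3-fold between the means. The Arntl to Per3 ratio was 8.30, 8.66 and 7.82 after banding, against 0.177, 0.190 and 0.206 in the sham libraries, 43.3-fold apart. Both pairs join an activator with a gene that peaks at another time of day in a cycling tissue. Arntl, Nr1d1 and Per3 were selected on the group difference, so these ratios only combine differences given above.

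The order of the levels was also different in each group. In the sham group it ran from Nr1d1 (99.6 FPKM) through Nr1d2 (53.3), Cry2 (15.5), Per1 (13.1), Per2 (10.7), Per3 (9.03), Clock (6.90) and Cry1 (4.14) to Arntl (1.72) and Npas2 (1.46), and only the neighbours Arntl and Npas2 overlapped between libraries. In the BPVB group it ran from Nr1d1 (17.7 FPKM) through Arntl (16.3), Cry2 (15.0), Nr1d2 (14.5), Clock (11.4), Per1 (8.35), Cry1 (6.74), Npas2 (4.32) and Per2 (3.47) to Per3 (1.98). There Nr1d1 overlapped with Arntl, and Cry2 with Nr1d2. Arntl thus moved from next to last to second, and the members' means spanned a narrower range of levels after banding.

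**Figure D4:**
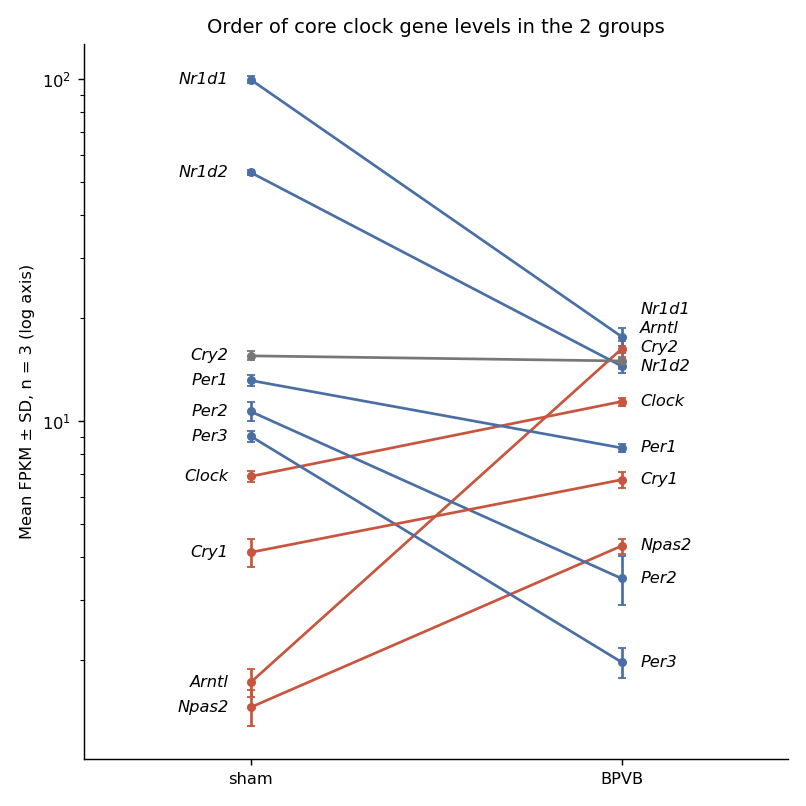
Mean FPKM of the 10 core clock genes in the sham and BPVB groups on a log axis, with error bars for the SD (n = 3 rats each) and 1 line per gene joining both means. Levels span 1.46 to 99.6 FPKM in sham and 1.98 to 17.7 FPKM after banding.

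Variation between rats of a group differed among the members. The within-group SD on the log2 scale was 0.0457 for Per1, 0.0467 for Clock and 0.0493 for Nr1d2, which lay at percentiles 12.5, 13.1 and 14.7 of all tested genes. Among genes within 1.5-fold of the same level the percentiles were 10.2 for Per1, 9.16 for Clock and 31.2 for Nr1d2, and Nr1d1 lay at 63.2. Per2 varied most among the members, with an SD of 0.166 at percentile 70.5 of all tested genes and 81.7 of genes of like level. The lowest Per2 library of the BPVB group (2.82 FPKM) lay farthest from its group.

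Genes tied to the loop but outside the 10 were followed in lists written with earlier results of these data known. Counts, medians and adjusted p-values of these written lists are therefore a description and support nothing. Of 9 secondary loop genes tested, 2 rose and 6 fell at an adjusted p below 0.05 (limma), 1 and 6 of them as DEGs, where 17.2% and 14.3% of all tested genes were called and 2.24% and 1.03% were DEGs, with a median log2 difference of -1.41 against 0.0245 over all genes. Dbp, an output factor that the CLOCK and BMAL1 pair turns on and that binds the D-box, measured 12.3, 11.7 and 12.1 FPKM in the BPVB group and 139, 142 and 140 FPKM in the sham group (log2 difference -3.49, SE 0.038, adjusted p = 3.7e-10). Its groups were further apart on this scale than those of any of the 10 members. Its relatives of the PAR bZIP family fell too, Tef by 1.53 (adjusted p = 1.1e-07) and Hlf by 1.49 (adjusted p = 1.9e-05) on the log2 scale.

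Nfil3 encodes the repressor that competes with DBP for the D-box, and it rose from 2.98, 2.41 and 2.29 FPKM in the sham group to 9.34, 7.65 and 6.56 FPKM in the BPVB group (log2 difference 1.44, SE 0.14, adjusted p = 7.9e-05). Ciart, a repressor of the CLOCK and BMAL1 pair, measured 0.256, 0.635 and 0.175 FPKM in the BPVB group and 3.42, 4.02 and 3.86 FPKM in the sham group (log2 difference -2.35, SE 0.19, adjusted p = 3.0e-05), with 16 to 51 fragments per BPVB library behind it and a range of -3.63 to -1.83 over the alternative fits. Bhlhe40 and Bhlhe41, which encode E-box repressors, fell by 1.19 (adjusted p = 1.2e-06) and 1.41 (adjusted p = 6.4e-06) on the log2 scale. Arntl2, a paralogue of Arntl, rose by a log2 difference of 0.63 (adjusted p = 0.023). Rora, whose product activates through the ROR element, had a log2 difference of -0.25 that did not pass (adjusted p = 0.12), although its groups did not overlap (2.08, 2.29 and 2.03 FPKM after banding, 2.53, 2.90 and 2.47 FPKM in sham). Rorb was below the filter on low values.

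**Figure D5:**
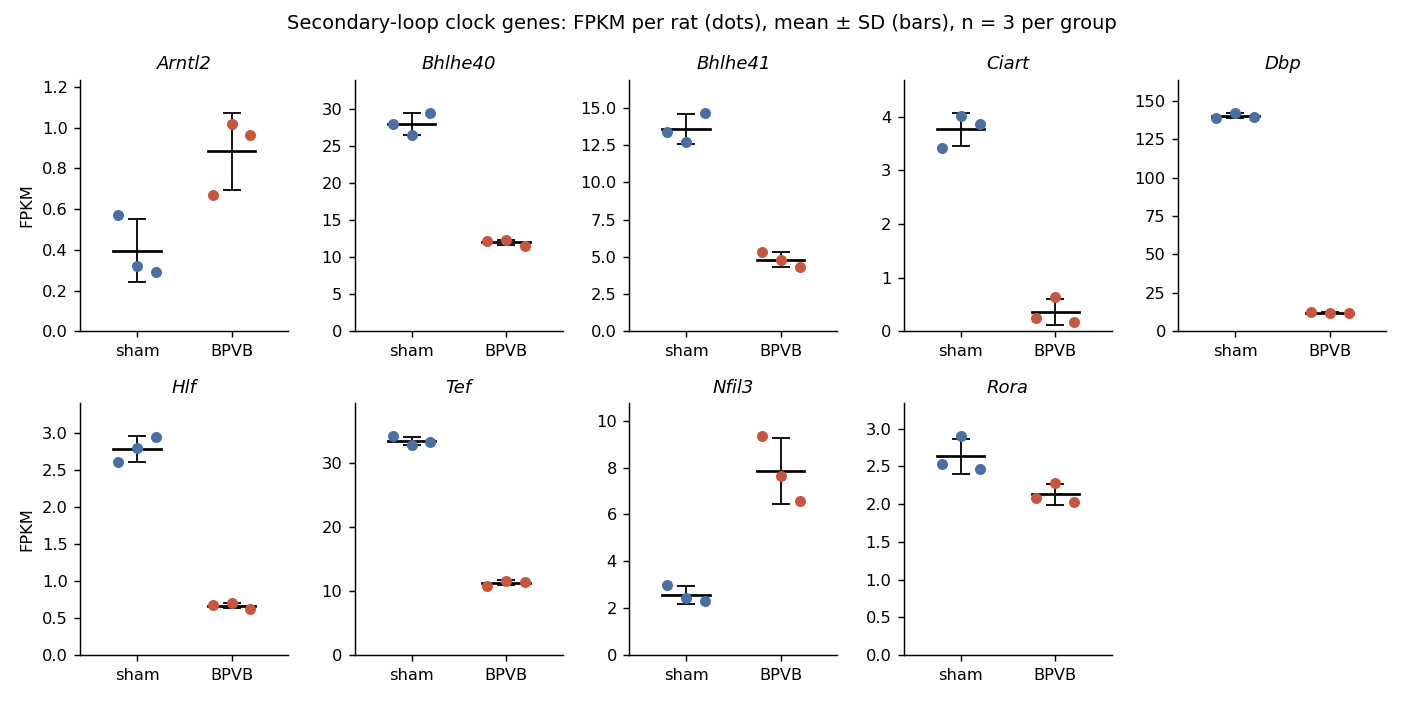
FPKM of the tested secondary loop genes in each library, 1 panel per gene with its own linear axis from 0; dots are rats (n = 3 per group) and bars give the mean and SD. Dbp, Tef, Hlf, Ciart, Bhlhe40, Bhlhe41 and Rora are lower in every BPVB library than in any sham library, and Nfil3 and Arntl2 are higher, where groups did not overlap for 20.5% (lower) and 25.2% (higher) of all tested genes.

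The next list held enzymes and adaptors that modify, bind or degrade the clock proteins. Of 17 tested, 4 rose (Btrc, Csnk1d, Csnk2a1 and Nono), 2 fell (Prkaa2 and Usp2) and none was a DEG (limma), with a median log2 difference of 0.05. These counts were near the shares of all tested genes called higher (17.2%) and lower (14.3%). The largest difference was that of Usp2, a deubiquitinase that is itself rhythmic in many tissues, at -0.82 (adjusted p = 1.3e-04). Csnk1d, the casein kinase that phosphorylates the Period proteins, differed by 0.24 on the log2 scale (adjusted p = 0.0046).

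Of 14 tested output genes 4 rose and 5 fell, with a median log2 difference near 0, where 17.2% and 14.3% of all tested genes were called. The 1 DEG, where 2.24% of all tested genes were DEGs higher in the BPVB group, was Pdk4. It encodes a kinase that holds back the use of glucose carbon and measured 141, 137 and 131 FPKM in the BPVB group and 35.2, 38.2 and 33.9 FPKM in the sham group (log2 difference 1.92, adjusted p = 2.9e-08). Klf9, a glucocorticoid-responsive factor, fell by 0.63 (adjusted p = 1.4e-05), and Wee1, a cell-cycle kinase gene, fell by 0.40 (adjusted p = 0.0026) on the log2 scale.

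Of 108 tested genes with a circadian annotation outside the members and the lists above, 34 rose and 12 fell (adjusted p below 0.05, limma), 7 and 2 of them as DEGs, with a median log2 difference of 0.08. Over all tested genes 17.2% rose and 14.3% fell, 2.24% and 1.03% as DEGs, with a median of 0.0245, and no difference between this list and all genes was tested. The 5 with the largest differences were Sftpc (3.40), Sftpb (3.31), Sftpa1 (3.09), Adipoq (1.53) and Nkx2-1 (1.46). That order is the one on the log2(FPKM + 0.5) scale, which compresses low genes. Nkx2-1 ran from 1.04 to 2.80 over the alternative fits, and Tph1, named after its values were seen, differed by 0.95 on this scale and by 11.3-fold in mean FPKM, with 1 to 8 fragments per sham library. The 5 genes encode surfactant proteins, an adipocyte hormone and a transcription factor of lung epithelium, and none is a part of the loop. Sftpc, Sftpb and Sftpa1 are themselves among the lung epithelial markers given above, and the part of those cells in the other values was not tested.

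The deposited annotation placed 9 of the 10 members among 149 genes with a circadian gene ontology term and 9 of the 10 among 29 genes of the KEGG circadian rhythm pathway. Nr1d2 was the member absent from both. The same annotation gave the bHLH family for Arntl, Clock and Npas2 and a thyroid hormone receptor-like family for Nr1d1 and Nr1d2.

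The genes whose profile over the 6 libraries was most like that of Arntl, by Euclidean distance between centred log2(FPKM + 0.5) values among 12157 genes, were RT1-Bb (distance 0.318), Inmt (0.330), Sftpa1 (0.342), Mmp12 (0.405) and Cldn18 (0.436). Among those nearest to Nr1d1 were Lgals5 (0.428), Ciart (0.499), Cd300lg (0.638) and Dcdc5 (0.719). Of these genes Ciart is on the secondary loop list and Sftpa1, which carries a circadian annotation, is one of the lung epithelial markers that were higher in the BPVB group. Mmp12 rested on 0 to 8 fragments per sham library, and reads of RT1-Bb, a gene of the major histocompatibility complex, may be shared with close copies. With 3 libraries per group, this distance mainly picks genes with a like group difference. The log2 differences of the genes nearest to Arntl ran from 2.73 for RT1-Bb to 3.09 for Sftpa1, against 2.91 for Arntl.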

How the data were processed

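PV tissue from 3 BPVB and 3 sham rats was sequenced as paired 150 bp reads. The deposited table holds FPKM per gene, which the authors computed after trimming, alignment and counting. The methods name fastp, HISAT and HTSeq-count, while the submitters' processing notes list HISAT2 2.0.5, StringTie 1.3.3b, featureCounts 1.5.0-p3 and DESeq2 1.20.0. The genome build, annotation and strand setting are not given in the sources used here. FPKM scales with the library total, so a change in abundant genes shifts all others.

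Groups followed the labelled treatment. The 15150 of 17833 genes whose mean FPKM reached 0.1 were fitted on log2(FPKM + 0.5) with limma 3.58.1 in R 4.3.3 (trend on the mean, two-sided, Benjamini-Hochberg adjustment over all tested genes). A log2 difference on this scale understates the change of low genes. A DEG had an adjusted p below 0.05 and an absolute log2 difference above 1. FPKM values of a gene were whole multiples of 1 fragment in 99.99% of genes (ratios within 1e-09 of a whole-number ratio, fragments within 0.01 of a whole number), which gave fragments per gene and library totals. Replicate libraries of a group differed by 4.61 to 6.51 times the sampling variance, so each was kept as 1 sample.

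The members and lists were chosen with earlier results of these data known. Named genes were the members, the DEGs of the written lists, the 5 DEGs of the annotation list with the largest difference, and the 5 genes nearest to Arntl and to Nr1d1, of which 1 is not reported here. Other genes named beside them, such as Usp2, Klf9 and Thra, were chosen after their values were seen. Scripts were tested on simulated data. Alternatives were other pseudocounts, filters and scalings, voom on the recovered fragments, a replicate block, and leaving out each library.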

Additional observations from a re-analysis of the deposited data

How the results depend on the processing

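Across the 14 alternatives run for each member no log2 difference changed sign. Of these 140 values, 127 moved by less than the within-group SD, and the 13 that moved further were for Arntl, Npas2, Per3 and Clock. Arntl ranged from 2.66 with a pseudocount of 1 to 3.24 with voom, Nr1d1 from -2.51 to -2.43 and Cry2 from -0.08 to -0.01. The 496 DEGs over all genes became 325 with a pseudocount of 1, 901 with 0.1, 1133 with voom on recovered fragments, and 4775 by adjusted p alone. Of the 148 tested genes of the clock lists, the annotation list included, 69 were called and 17 were DEGs. Over all 15150 tested genes 4775 were called and 496 were DEGs. Leaving out each library gave 497 to 532 DEGs and 60 to 62 called clock list genes. The replicate numbers did not pair the libraries (correlations of deviations 0.031, 0.0248 and 0.0191, although every library correlated best with its own number), and a replicate block gave 497 DEGs and 64 called clock list genes. The fragments behind a value limit only low genes such as Ciart.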

Other observations

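The annotated circadian rhythm pathway holds 8 tested genes outside the members and the lists above, a set looked at after the values were seen. They encode subunits of the energy-sensing kinase AMPK and of the ubiquitin ligase complex that marks clock proteins for degradation. By adjusted p below 0.05 (limma), Prkag2 rose by a log2 difference of 0.26 (adjusted p = 0.011), Prkag1 fell by 0.40 (adjusted p = 2.6e-04) and Rbx1 fell by 0.15 (adjusted p = 0.026) on the log2 scale. The other 5 did not pass, and over all tested genes 17.2% were called higher and 14.3% lower. Prkag1 measured 33.8 ± 1.12 FPKM in the BPVB group and 44.9 ± 2.16 FPKM in the sham group (SD, n = 3 each).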
